A study of Homo sapiens
Mus musculus with 8 samples.

Results

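Mitotic Jurkat-like cells were taken as the 683 cells with the highest mitosis score among 6869 Jurkat-like cells, out of 23147 barcodes with at least 5000 unique molecular identifiers (UMIs, tags that count each captured RNA molecule once) in the series. Jurkat is a human T cell line derived from an acute leukemia, and the study lists it as a line of CD4 T cells. A barcode was Jurkat-like when over 80% of its UMIs were human, mitochondrially encoded genes held under 10% of the human UMIs, and the cytotoxic genes NKG7, CST7 and CD8A together held under 0.02%. The score was the UMIs of CCNB1, CDC20, PLK1, CENPF, CENPE, HMMR, UBE2C and AURKA per 10000 human UMIs. The highest 10% of the Jurkat-like cells of each library were called mitotic, and the lowest 50% (3433 cells in all) were the contrast. Both classes are therefore ranges of a continuous score and not cell types. The name mitotic stands for the top of this score, and whether these cells were in G2 or in mitosis was not tested. The cells were chosen by the score, the total UMIs, the mitochondrial share and the 3 cytotoxic genes. These are therefore given below as a description. The 8 score genes are left out of every count. The mitochondrially encoded genes and NKG7 stayed among the genes tested, and their calls are counted, although the selection used them. CST7 and CD8A had no call.

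The libraries were droplet-based single-cell RNA-seq libraries prepared on the 10x Genomics platform with 3 chemistries, from equal parts (1:1:1:1) of the lines Jurkat and TALL104 (human) and EL4 and IVA12 (mouse). The labels name no treatment. The kits differ in version and in the end of the transcript that they read. The 3′ v3 kit had 4 libraries and the 5′ v1 kit had 2, while 1 library of 3′ v2 (replicate 2) was used and its replicate 1 was not analysed here. The study's sample list traces the 7 libraries to 4 cell suspensions: 1 for 3′ v2, 1 for both 5′ v1 libraries, 1 for 3′ v3 replicates 1 and 3, and 1 for 3′ v3 replicates 2 and 4. Kit and suspension therefore cannot be told apart between kits. Nothing in the labels says that the suspensions came from separate cultures, so p-values measure the spread between these libraries, which may be technical.

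A dividing cell copies its DNA in S phase and grows through G2. It then enters mitosis, in which the kinase CDK1 with cyclin B drives chromosome condensation, breakdown of the nuclear envelope and assembly of the spindle. The anaphase-promoting complex (APC/C) ends mitosis by marking cyclin B and securin for destruction. Transcripts of most proteins with a part in these steps build up late in the cycle under the transcription factors FOXM1, MYBL2 and the MuvB proteins, whereas E2F factors drive the genes of the G1 to S transition. Jurkat cells grow continuously in culture, so a mixture holds cells of every phase.

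The score cut divided neighbouring cells. The lowest mitotic scores were 22.6 UMIs per 10000 in 3′ v2, 24.8 and 18.8 in 5′ v1, and 33.8, 44.4, 34.2 and 43.7 in 3′ v3 replicates 1 to 4, and the highest scores just outside were 22.5, 24.7 and 18.6, and 33.8, 40.2, 34.2 and 43.5. Within 10% of the cut lay 173 mitotic cells and 182 cells outside. The class held 27 cells in 3′ v2, 127 and 59 in 5′ v1, and 137, 10, 295 and 28 in 3′ v3. Values of 3′ v3 replicate 2 thus rest on 10 mitotic and 54 contrast cells. Across libraries the median score of mitotic cells was 24.9 to 49.3 and that of contrast cells 2.35 to 3.62.

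Mitotic cells held more UMIs than contrast cells. Their median human UMIs per cell were 15879 against 12136.5 in 3′ v2, 26347 against 17315 and 25957 against 17738 in 5′ v1, and 25884 against 16142.5, 10708 against 10224.5, 22720 against 15654.5 and 12737 against 9830 in 3′ v3 replicates 1 to 4. The mitotic median was 1.05 to 1.60 times that of contrast cells and higher in 7 of 7 libraries. At an equal 5000 UMIs, mitotic cells held a median of 1842 to 2260 genes and contrast cells 1758 to 2181, and the mitotic value was higher in 6 of 7 libraries. The median share of UMIs from mouse genes was 0.23% to 3.28% in mitotic and 0.34% to 3.79% in contrast cells, lower in mitotic cells in 7 of 7 libraries. Total depth was 24790710 to 251164949 UMIs per library, and only 2 cell barcodes occurred among the Jurkat-like cells of more than 1 library.

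Jurkat identity was checked on its markers. The T cell receptor chain CD3D held 8.93 to 18.2 UMIs per 10000 in mitotic and 6.96 to 15.9 in contrast cells. The study lists TALL104 as T cells too, so CD3D does not tell the human lines apart. AIF1, a calcium-binding protein, held 1.60 to 5.71 in mitotic and 1.83 to 5.59 in contrast cells. The leukemic transcription factor TAL1 held 0.45 to 0.93 and 0.33 to 0.94. CD4 itself was nearly absent, at 0 to 0.085 UMIs per 10000 in mitotic and 0.0050 to 0.052 in contrast cells. Of TALL104 genes, the granule protease GZMB had no UMI in the mitotic cells of any library, GNLY had at most 0.0225 per 10000, and the 26 markers of that line summed to 2.86 to 5.05 in mitotic and 3.47 to 6.13 in contrast cells. The markers in this sum include NKG7, CST7 and CD8A, the cytotoxic genes whose summed level the selection limited. The sum was therefore partly fixed in advance and is a description. The part of other lines in the differences below was not tested.

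The comparison of mitotic with contrast cells asked which transcripts mark the cells at the top of the score in every kit. UMIs were summed per library and class, and 9927 human genes were tested with edgeR's quasi-likelihood test with the library as a block and Benjamini-Hochberg adjustment. Of them, 1874 (18.9%) were higher in mitotic cells and 2117 (21.3%) were lower at an adjusted p under 0.05. Most of these differences were small: 140 genes rose and 110 fell by over 2-fold, and the median log2 fold change of the genes that rose was 0.33. Without scaling factors 2518 genes were higher and 1487 lower, so that 62.9% of the calls were higher in place of 47.0%. Without a library term, 161 and 103 genes passed the test, and when cells were thinned to 5000 human UMIs 650 and 893 of 7075 genes did. Leaving out 3′ v3 replicate 3, the library with the most cells, gave 1214 higher and 1591 lower.

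The gene with the highest fold change was PIF1, a DNA helicase that unwinds structured DNA. It had 50.9, 77.9 and 149 CPM (counts per 1000000 human UMIs; the lowest, median and highest of the 7 libraries) in mitotic cells and 0, 0.680 and 1.76 in contrast cells. All libraries of 1 class lay above all of the other, as for 121 genes (1.22%) in the mitotic direction and 82 (0.826%) in the other. The fitted log2 fold change of PIF1 was 5.82 (SE 0.13, adjusted p = 1.59e-39). Genes nearly absent from 1 class, such as PIF1, pass the filter on low counts through the other class. The size of their fold change depends on a level near 0. PSRC1, which binds spindle microtubules, followed with 48.9, 67.2 and 74.1 CPM against 1.59, 3.40 and 4.52 CPM, a log2 fold change of 4.05 (SE 0.10, adjusted p = 9.26e-37). Its classes did not overlap either.

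Of the 15 leading genes among those with a mean of at least 20 CPM, 9 belong to the lists of spindle factors, kinesins, kinetochore and chromosome structure genes. The 15 were, after PIF1 and PSRC1, the kinesin KIF20A (log2 fold change 3.75), the spindle protein DLGAP5 (3.56), the centromeric histone CENPA (3.26), the spindle pole protein ASPM (3.18), FAM64A (2.99), the topoisomerase TOP2A (2.92), KIF14 (2.81), the nuclear import adaptor KPNA2 (2.71), CDCA3 (2.69), ARL6IP1 (2.59), the chromosomal passenger CDCA8 (2.53), TNFAIP8L1 (2.47) and the kinetochore protein KNSTRN (2.44). The rule by which they were named required them to be higher in 7 of 7 libraries, which 827 genes (8.33%) were. The classes did not overlap in any of the 15. ARL6IP1, which shapes endoplasmic reticulum tubules, and TNFAIP8L1, a regulator of cell death, are not known as parts of the mitotic apparatus. ARL6IP1 had 163, 371 and 418 CPM in mitotic and 28.2, 47.8 and 72.9 CPM in contrast cells, and TNFAIP8L1 had 29.2, 35.6 and 84.2 and 4.19, 7.31 and 14.3 CPM. Both differences were largest in 3′ v3 replicate 4, at 3.41 and 2.89 on the log2(CPM + 1) scale.

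**Figure D1:**
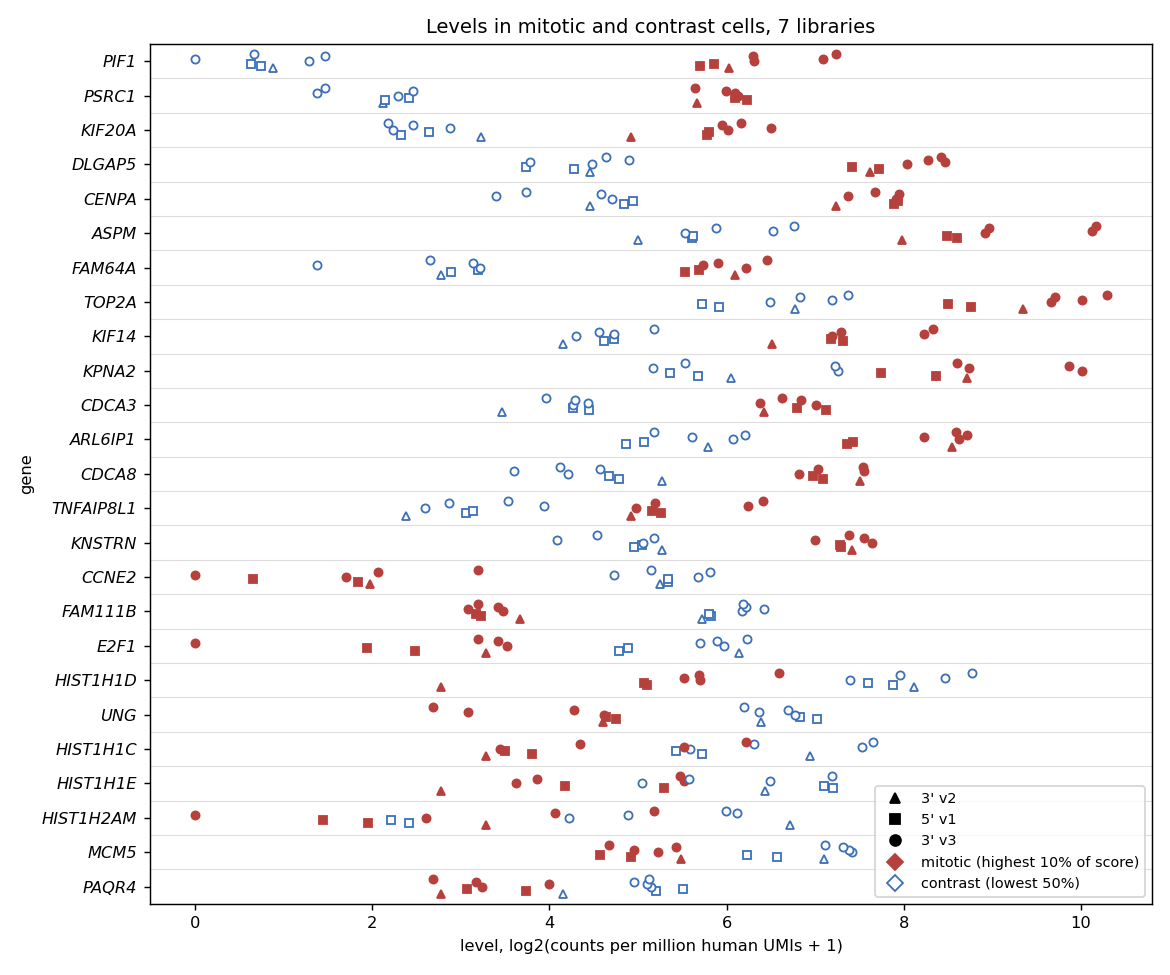
Level of the 15 genes with the highest and the 10 with the lowest fold change, among genes with a mean of at least 20 CPM, in each of 7 libraries, on the x axis as log2(CPM + 1). Filled red symbols are sums over mitotic cells and open blue symbols sums over contrast cells, and the symbol shape gives the kit. The classes lie fully apart for PIF1 to KNSTRN, and they overlap for 3 of the lower genes, the histones HIST1H1C, HIST1H1E and HIST1H2AM.

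Of the 10 named genes that fell most, 3 belong to the list of origin licensing and the G1 to S transition (CCNE2, UNG and MCM5) and 4 to that of replication-dependent histones. CCNE2, a cyclin that starts DNA replication with CDK2, had 0, 2.59 and 8.15 CPM in mitotic and 25.5, 39.5 and 55.2 CPM in contrast cells, a log2 fold change of −4.16 (SE 0.15, adjusted p = 1.18e-29). A UMI of CCNE2 was found in 0% to 7.46% of mitotic cells and in 22.2% to 48.9% of contrast cells. In mouse barcodes, which should lack it, the share was at most 1.12%, at a median depth of 25264 to 29758 UMIs against 10708 to 26347 human UMIs in mitotic cells. Among genes with a mean of at least 20 CPM the next were FAM111B (−2.83), the transcription factor E2F1 (−2.65), the linker histone HIST1H1D (−2.35), the uracil DNA glycosylase UNG (−2.35), HIST1H1C (−2.04), HIST1H1E (−2.0), HIST1H2AM (−1.96), the replicative helicase subunit MCM5 (−1.94) and PAQR4 (−1.91). The naming rule required these 10 to be lower in 7 of 7 libraries, which 1163 genes (11.7%) were.

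Regulators of entry into and exit from mitosis were mostly higher. Of 17 members tested, 12 rose and 2 fell, with a median log2 fold change of 1.74 against −0.02 over all 9927 genes. CCNB2, the partner of CDK1 related to CCNB1, had 189, 251 and 369 CPM in mitotic and 17.0, 38.5 and 75.6 CPM in contrast cells (5.40-fold, adjusted p = 1.2e-32). GTSE1, which holds p53 down in G2, had 111, 231 and 413 against 28.1, 48.8 and 93.0 CPM (4.82-fold). The classes of both genes did not overlap. BORA, the activator of Aurora A and through it of PLK1, rose 4.74-fold, with the smallest difference in 3′ v3 replicate 2. The centrosomal kinase NEK2 rose 3.83-fold.

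CDK1 itself, with its activator CDC25C and cyclin CCNA2, was among the 12. CDK1 had 216, 257 and 609.6 CPM in mitotic and 57.3, 67.3 and 159 CPM in contrast cells, CCNA2 had 172, 276 and 368 and 55.6, 80.2 and 111 CPM, and CDC25C had 14.6, 24.0 and 54.4 and 5.03, 6.37 and 8.19 CPM. These are fitted log2 fold changes of 1.86, 1.79 and 1.90, and no library's contrast value reached the lowest mitotic value. The 2 that fell were PKMYT1 (−0.94), the membrane-bound kinase that inhibits CDK1, and MASTL (−0.58), the Greatwall kinase. The other inhibitory kinase, WEE1, had a log2 fold change of 0.09 (SE 0.08) and did not pass the test.

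Transcription factors of the cycle went both ways: of 22 members of the DREAM, MuvB and E2F list, 6 rose and 6 fell. That is 27.3% in each direction, near the 18.9% and 21.3% of all genes tested. FOXM1 had 62.2, 84.2 and 127 CPM in mitotic and 33.5, 39.8 and 52.7 CPM in contrast cells (1.89-fold, adjusted p = 3.47e-17), with no overlap. Also higher were the repressive E2F5 (0.54), the pocket proteins RBL2 (0.38) and RB1 (0.24), the MuvB subunit LIN54 (0.27) and NFYC (0.20), a subunit of the CCAAT-binding factor. Lower were the activators E2F1 (−2.65) and E2F2 (−1.24), their partner TFDP1 (−0.36), the atypical repressors E2F7 (−1.26) and E2F8 (−0.96) and the histone chaperone RBBP4 (−0.25). E2F1 had 0, 8.15 and 10.4 CPM against 26.5, 58.4 and 74.3 CPM, so its classes did not overlap. E2F8 was unevenly measured, with a difference of −4.21 in 3′ v3 replicate 2, where no mitotic cell held a UMI, against −0.84 to −0.29 in the other 3′ v3 libraries. MYBL2, the B-Myb partner of MuvB, had a log2 fold change of −0.13 (SE 0.06) and did not pass the test.

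Motors and spindle proteins rose in larger numbers. The 16 kinesins tested are a chosen set and not the whole family. Of them, 13 rose and 1 fell (median 1.42), and in 10 the classes did not overlap. Over all genes tested 18.9% rose, 21.3% fell and 1.22% lay fully apart in the mitotic direction. These shares are the background for this list and the others. The lists were chosen with earlier results of these data known, so their shares describe the chosen genes only. KIF20A, which acts at the midzone in cytokinesis, had 29.2, 60.9 and 89.7 CPM in mitotic and 3.51, 4.48 and 8.38 CPM in contrast cells (13.4-fold, adjusted p = 5.44e-34). It was detected in 33.3% to 78.0% of mitotic cells, in 4.2% to 8.42% of contrast cells and in at most 1.34% of mouse barcodes. KIF18A, which dampens chromosome movements, rose 5.00-fold, and the chromokinesin KIF4A 4.79-fold. KIF5B, the motor of conventional transport, rose 1.78-fold, KIF24 had a log2 fold change of −0.48 (adjusted p = 0.0487) that did not pass by DESeq2 or with suspensions summed, and the transport motor KIF3B and the depolymerase KIF2A did not pass the test (0.01 and 0.05).

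Among 25 spindle assembly factors, 18 rose and 2 fell (median 1.46). DLGAP5 had 169.8, 261 and 351 CPM against 12.3, 21.0 and 28.7 CPM, and ASPM had 251, 483 and 1155 against 31.0, 48.2 and 107 CPM. TPX2, the activator of Aurora A on microtubules, had 395, 479 and 753 CPM in mitotic and 73.3, 97.2 and 116 CPM in contrast cells (5.13-fold). In each of these 3 genes the lowest mitotic library lay above the highest contrast library. The augmin subunits HAUS2 and HAUS6 fell (−0.39 and −0.24), and HAUS8 rose (0.26). Of 12 tubulin and stathmin genes, 9 rose and none fell (median 0.39), led by TUBA1C (246, 323 and 625.1 against 57.3, 81.6 and 183 CPM) and TUBB4B (230.2, 527 and 885 against 77.3, 120.1 and 302 CPM). The fold changes of these genes were 3.49 and 3.27, while the abundant TUBB and TUBA1B rose 1.39-fold and 1.25-fold. TUBB2A and TUBD1 rose 1.74-fold and 1.67-fold, although TUBD1 was higher in only 4 of 7 libraries. Tubulin genes share much sequence, so reads may have been divided among them.

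**Figure D2:**
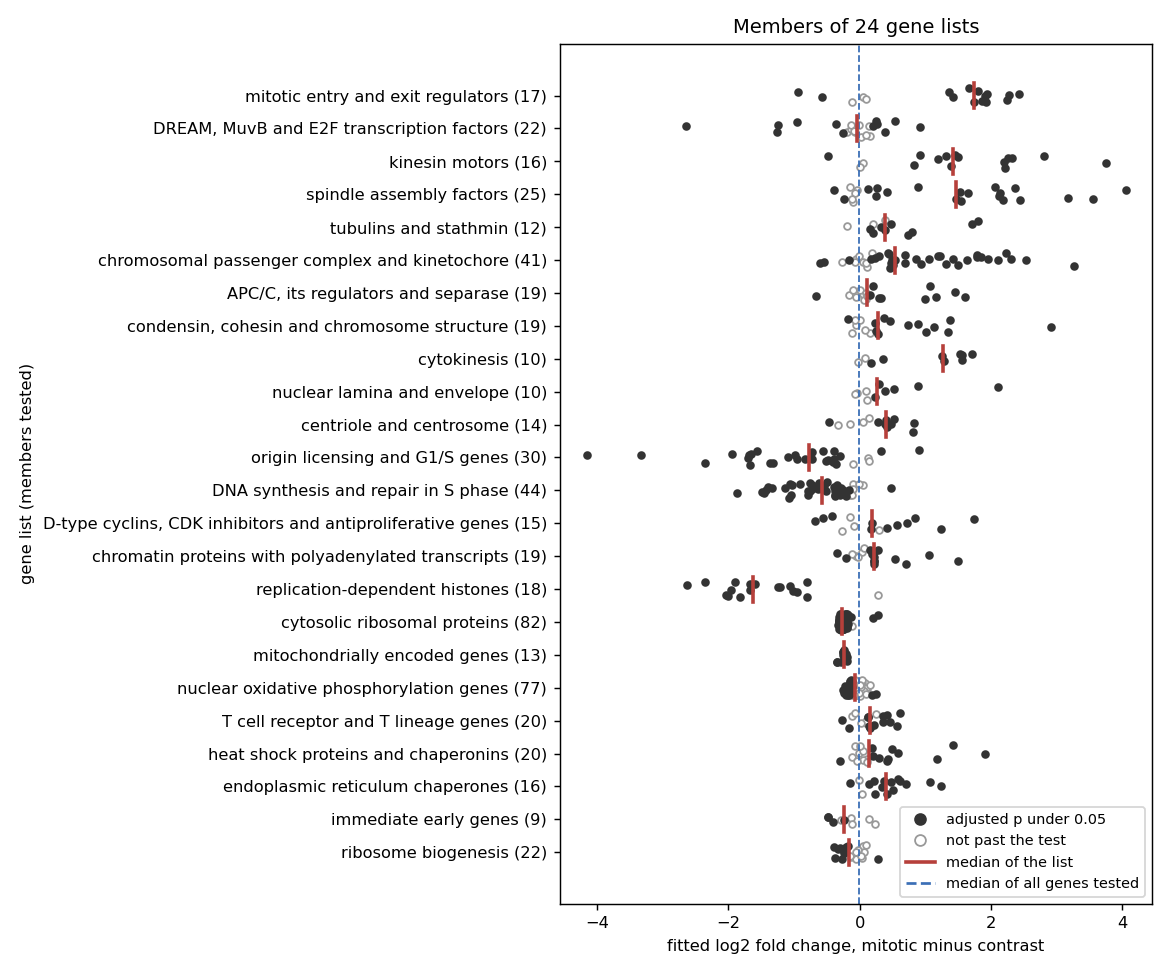
Fitted log2 fold change (x axis, mitotic minus contrast) of each tested member of 24 gene lists, with the number tested in brackets. Filled points passed the test, red bars mark the median of each list and the dashed line marks the median of all genes, −0.02. The selection of cells used the mitochondrially encoded genes, so their points are a description. Medians range from 1.74 for regulators of mitotic entry and exit to −1.63 for replication-dependent histones.

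Of 41 genes of the chromosomal passenger complex and the kinetochore, 30 rose and 3 fell (median 0.54). AURKB, the kinase of the passenger complex, had 91.7, 199 and 250.0 CPM in mitotic and 17.5, 39.9 and 43.3 CPM in contrast cells (4.92-fold, adjusted p = 3.77e-35), and its partners CDCA8, INCENP and BIRC5 rose 5.77-fold, 4.32-fold and 3.45-fold. NUF2, of the NDC80 complex that holds microtubules, had 158, 269 and 295 CPM against 37.1, 43.3 and 62.5 CPM. The checkpoint kinase BUB1 had 107, 162 and 187 against 22.3, 39.8 and 51.4 CPM. None of these genes overlapped between classes. The histone variant CENPA, which marks the centromere, rose 9.56-fold and was detected in 66.7% to 100% of mitotic cells against 7.41% to 36.0% of contrast cells and at most 3.37% of mouse barcodes. Most subunits of the constitutive centromere network changed less: CENPC, CENPN, CENPL and CENPT rose by 0.43 to 0.51 on the log2 scale, CENPH and CENPK did not pass the test, and CENPM, CENPU and the kinetochore protein DSN1 fell (−0.16, −0.54 and −0.61).

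Of 19 genes of the APC/C with its regulators and substrates, 9 rose and 1 fell (median 0.12). Securin, PTTG1, had 339, 549 and 614 CPM in mitotic and 79.6, 156 and 238 CPM in contrast cells (2.74-fold), and UBE2S, which extends its ubiquitin chains, had 1068, 1497 and 1761 against 371, 624 and 978 CPM (2.10-fold). The classes of both did not overlap. Separase, ESPL1, had 5.85, 17.2 and 44.8 against 4.16, 6.16 and 14 CPM (3.03-fold), and FZR1, the coactivator of late mitosis and G1, had 15.8, 26.4 and 51.6 against 7.57, 11 and 17.5 CPM (2.24-fold). FBXO5, the inhibitor known as EMI1, fell by 0.66 on the log2 scale. Of the core subunits, CDC27 rose 1.99-fold, and the remaining genes of the 9 that rose were among ANAPC11, ANAPC16, CDC16, CDC23 and CDC26. The subunits ANAPC1, ANAPC2, ANAPC4, ANAPC5, ANAPC7, ANAPC10, ANAPC13 and ANAPC15 had log2 fold changes of −0.16 to 0.12 and did not pass the test.

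Of 19 genes of chromosome structure, 12 rose and 1 fell (median 0.28). TOP2A, which untangles DNA, had 359.6, 811 and 1253 CPM in mitotic and 51.8, 108 and 164 CPM in contrast cells (7.56-fold, adjusted p = 6.05e-43). MKI67, the coat protein of mitotic chromosomes, had 301, 360.1 and 875 against 107, 165 and 272 CPM (2.54-fold). Subunits of condensin rose, among them NCAPG at 2.60-fold, NCAPD2 at 2.19-fold, NCAPH at 2.00-fold, SMC4 at 1.67-fold and SMC2 at 1.38-fold. NCAPH2, a condensin II subunit, did not pass the test (−0.06). Of cohesin, RAD21 rose 1.85-fold and SMC3 fell by 0.17 on the log2 scale, while STAG2 did not pass (−0.11).

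Of 10 cytokinesis genes 8 rose and none fell (median 1.27). RACGAP1 of centralspindlin had 61.4, 74.5 and 89.7 against 13.4, 22.9 and 24.4 CPM (3.26-fold), its partner ECT2, the exchange factor for RHOA, 70.2, 92.2 and 171 against 31.0, 33.9 and 46.2 CPM (2.87-fold), and CEP55 of the midbody 124, 157 and 245 against 42.0, 50.7 and 105 CPM (2.94-fold). ARHGAP11A, which acts on RHOA as well, rose 2.96-fold. RHOA itself, which the contractile ring requires, had a log2 fold change of 0.07 (SE 0.05) and did not pass the test.

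Of 10 genes of the nuclear lamina and envelope, 6 rose and none fell (median 0.26). SUN2, which links the envelope to the cytoskeleton, stood out with 11.7, 40.4 and 84.2 CPM in mitotic and 3.35, 8.86 and 22.3 CPM in contrast cells (4.31-fold, adjusted p = 6.68e-25). The ranges of the classes overlapped, but SUN2 was higher in 7 of 7 libraries. The lamin B receptor LBR rose 1.85-fold, the lamina protein TMPO 1.44-fold and the kinase VRK1 1.3-fold. SUN1, the paralog of SUN2, did not pass the test (−0.07). Of 14 centriole and centrosome genes 9 rose and 1, CCP110, which caps centrioles, fell by 0.47 on the log2 scale (median of the list 0.39, and 0.25 in 5′ v1 alone). ODF2 rose 1.78-fold, PLK4, the kinase that starts centriole copying, 1.75-fold, STIL 1.44-fold and CEP192 1.40-fold.

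Genes of origin licensing and the G1 to S transition moved the other way, with 25 of 30 lower, 2 higher and a median of −0.78. CCNE1, the other E-type cyclin, had 0, 0.570 and 2.82 CPM in mitotic and 7.96, 11.7 and 22.2 CPM in contrast cells (10.0-fold lower). MCM5 had 22.8, 29.9 and 43.8 against 74.2, 138 and 170.1 CPM (3.83-fold lower), and UNG had 5.44, 23.4 and 25.9 against 72.6, 103 and 129 CPM (5.09-fold lower). None of these classes overlapped. Of the MCM2 to MCM7 helicase, the subunits MCM2, MCM3, MCM4 and MCM6 fell 2.59-fold to 3.25-fold and MCM7 1.66-fold. The 2 that rose were DBF4 (1.86-fold), the activator of the kinase CDC7, and the origin recognition subunit ORC5 (1.25-fold), while CDC7 itself fell by 0.36 on the log2 scale.

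DNA synthesis and repair genes followed in the same direction, with 37 of 44 lower and 1 higher (median −0.57). PCNA, the sliding clamp, had 29.9, 43.3 and 106.1 CPM in mitotic and 136, 204 and 394 CPM in contrast cells (3.66-fold lower, adjusted p = 1.67e-31). The chromatin assembly subunit CHAF1B fell 2.81-fold, the flap endonuclease FEN1 2.76-fold and the mismatch repair protein MSH6 2.68-fold. Classes did not overlap for PCNA, CHAF1B and MSH6, and overlapped for FEN1. Of genes of nucleotide supply, TYMS fell 1.20-fold, TK1 1.3-fold, RRM1 1.11-fold and RRM2 1.66-fold. The histone chaperone ASF1A rose 1.39-fold whereas its paralog ASF1B fell 1.54-fold.

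Replication-dependent histones, whose messages mostly end without a poly(A) tail and are made in S phase, were counted at low levels by these kits. Only 18 of 71 genes passed the filter on low counts, and 17 of the 18 fell (median −1.63). Without that filter 33 of 62 fell and none rose (median −1.25). HIST1H1D had 5.85, 44.8 and 95.1 CPM in mitotic and 168, 248 and 436 CPM in contrast cells (5.10-fold lower, adjusted p = 9.43e-29), and its classes did not overlap. HIST1H2AH had 0, 1.74 and 5.85 against 5.61, 9.56 and 36.9 CPM. HIST1H2BN alone did not pass (0.27). Per cell, the histones summed to a median of 2.27 to 7.05 UMIs per 10000 in mitotic and 4.5 to 22.6 in contrast cells, lower in 7 of 7 libraries. Histone genes are near-identical copies, so the counts of single genes are uncertain.

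Chromatin proteins with polyadenylated transcripts behaved otherwise, with 12 of 19 higher and 2 lower (median 0.21). HMGB2, a DNA-bending protein, had 956, 1266 and 1824 CPM in mitotic and 396, 427 and 654 CPM in contrast cells (2.83-fold, adjusted p = 6.04e-29) with no overlap. H2AFX, the histone variant of the DNA damage response, rose 2.09-fold, with its largest 3′ v3 difference (1.57) in replicate 2, and HMGB3 and HMGN2 rose 1.63-fold and 1.45-fold. HMGA1 and HMGN1 fell by 0.34 and 0.22 on the log2 scale.

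Levels over the whole range of the score placed these groups in order. The Jurkat-like cells of each library were divided by score into 10 bins of equal size, of which bins 1 to 5 correspond to the contrast and bin 10 to the mitotic cells. Relative to the mean of the bins, origin licensing genes peaked at 1.28 ± 0.10 (SD, n = 7) in bin 4 and fell to 0.67 ± 0.11 in bin 10. Genes of DNA synthesis peaked in the same bin at 1.19 ± 0.06. Histones rose from 0.34 ± 0.08 in bin 1 to 1.74 ± 0.16 in bin 6 and returned to 0.31 ± 0.11 in bin 10, and their highest bin was 5 or 6 in every library. Regulators of mitotic entry and exit rose in every step from 0.49 ± 0.08 to 1.94 ± 0.19, and, with kinesins, spindle factors and kinetochore genes, were highest in bin 10 in 7 of 7 libraries. Licensing genes were highest in bins 1 to 4. The bins of the contrast class thus included the highest licensing levels, and histone levels from 0.34 to 1.62. The bins are a description, since the score that orders them also chose the classes.

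**Figure D3:**
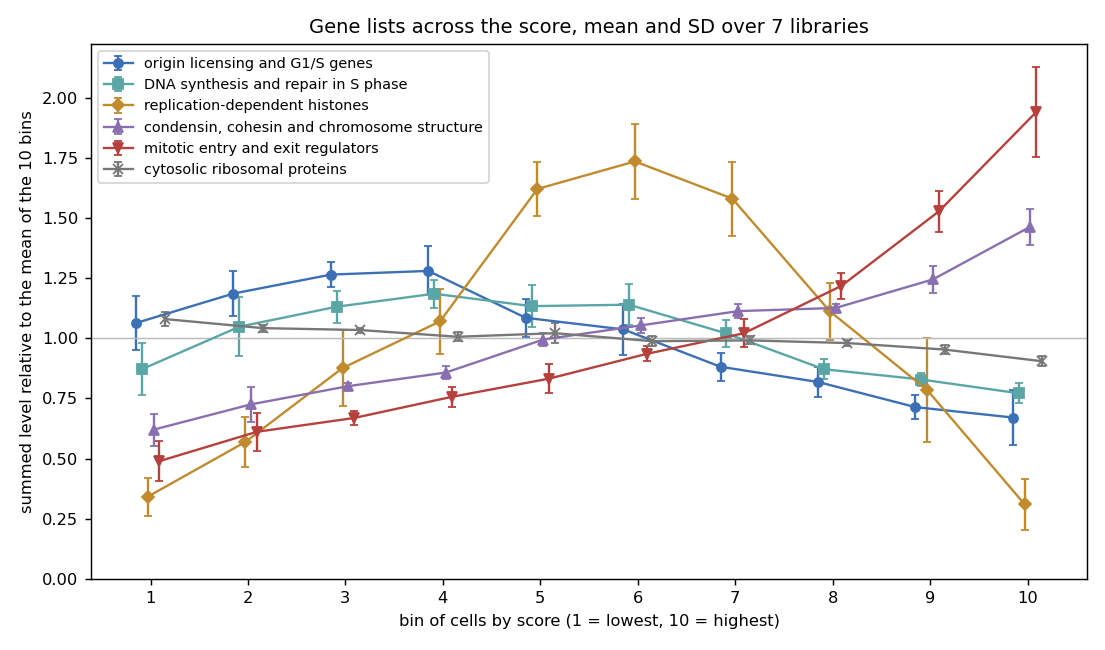
Summed level of 6 gene lists (y axis, relative to the mean of the 10 bins of a library) in bins of cells by score (x axis, 1 lowest to 10 highest). Points are means and bars SDs over 7 libraries. Licensing genes peak in bin 4 and histones in bin 6, and regulators of mitotic entry and exit are highest in bin 10.

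Among D-type cyclins, CDK inhibitors and antiproliferative genes, 8 of 15 rose and 3 fell (median 0.18), and by DESeq2 5 rose and 3 fell. Without the filter on low counts 7 of 19 rose, 5 fell and the median was −0.12. CDKN3, a phosphatase that acts on CDKs, had 304, 331 and 389 CPM in mitotic and 31.9, 98.6 and 142 CPM in contrast cells (3.32-fold, adjusted p = 1.91e-25). The INK4 inhibitors CDKN2D and CDKN2C, which bind CDK4 and CDK6, had 74.1, 117 and 157 against 46.2, 57.9 and 72.0 CPM and 59.8, 62.6 and 73.4 against 33.6, 39.4 and 51.0 CPM. The classes of these 3 genes did not overlap. CDKN2C differed least in 3′ v3 replicate 2, by 0.23 on the log2(CPM + 1) scale. CCNG2, an atypical cyclin linked to growth arrest, rose 2.37-fold and CDKN1B (p27) 1.48-fold. CDK2, CDK4 and the antiproliferative BTG3 fell by 0.56, 0.42 and 0.68 on the log2 scale, and CCND3 did not pass the test (−0.09).

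Cytosolic ribosomal proteins were lower as a group by a small amount: 79 of 82 fell and 2 rose, with a median of −0.27. The range was narrow, from −0.33 to 0.29, and RPL13A, RPL36A, RPL17 and RPS12 fell most, RPS12 1.25-fold. RPS12 had 3881, 4133 and 8539 CPM in mitotic and 4569, 5138 and 11024 CPM in contrast cells, a difference far smaller than that between libraries but of the same sign in 7 of 7. RPL39L, a copy expressed mainly in testis, and RPL7L1 were the 2 that rose (0.29 and 0.20). Summed per cell, ribosomal proteins took a median of 1977 to 3223 UMIs per 10000 in mitotic and 2265 to 3658 in contrast cells. Without scaling factors the median was −0.20 and 77 fell. Of 22 ribosome biogenesis genes 10 fell and 1, the pseudouridine synthase DKC1, rose (median −0.16). In 5′ v1 alone 3 fell and the median was −0.01, and in 3′ v3 alone 10 fell and the median was −0.17. GNL3, NOP56 and NPM1 of the nucleolus fell 1.31-fold, 1.26-fold and 1.23-fold. PES1 fell 1.3-fold, with a difference of −1.73 in 3′ v3 replicate 4 against −0.52 to −0.43 in the other 3′ v3 libraries.

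All 13 mitochondrially encoded genes had fitted log2 fold changes below 0, from −0.35 for MT-ND5 to −0.19 for MT-ND6. The mitochondrial share of a cell was capped by the selection, at the same value in both classes, so this is a description. The median share per cell was 2.5% to 8.97% in mitotic and 3.08% to 9.08% in contrast cells. With the cap at 5%, MT-CYB moved from −0.26 to 0.01. Of 77 nuclear genes of oxidative phosphorylation 28 fell and 2 rose (median −0.08). That is 36.4% and 2.60%, against 21.3% and 18.9% of all genes tested. The largest falls were 1.19-fold for NDUFV3 and 1.18-fold for ATP5G1. Without scaling factors 7 rose and 7 fell, and with the libraries of each cell suspension summed 5 fell, whereas 26 fell with RLE size factors, 24 by DESeq2 and 20 in thinned cells. Leaving out scaling factors moved the median of all genes by 0.06 on the log2 scale, nearly as much as these differences.

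Of 20 genes of the T cell lineage 12 rose and 2 fell (median 0.15). That is 60% and 10%, against 18.9% and 21.3% of all genes tested. In 5′ v1 alone 12 rose (median 0.28), in 3′ v3 alone 7 rose (median 0.13), and with the libraries of each suspension summed 8 rose. The difference between kits was not tested for the list. CD5, an inhibitor of receptor signalling, had 20.5, 30.1 and 52.3 CPM in mitotic and 15.1, 20.4 and 28.7 CPM in contrast cells (1.54-fold, adjusted p = 1.11e-07), and PTPRC (CD45) had 208, 415 and 531 against 129.9, 301 and 389 CPM (1.49-fold). Both were higher in 7 of 7 libraries with overlapping ranges. The transcription factors GATA3 and LEF1 rose 1.38-fold and 1.34-fold, whereas TCF7 fell by 0.26 and CD7 by 0.16 on the log2 scale. CD3E, CD3D, CD1E and CD3G rose by 0.12 to 0.22 on the log2 scale, and CD1E was lower in mitotic cells of 3′ v3 replicate 2 (−0.70 on the log2(CPM + 1) scale). Of 8 Jurkat markers tested 4 rose (these 4) and AIF1 fell (−0.19), but with suspensions summed only 2 rose and none fell. Of TALL104 markers outside the selection, GZMA (0.71) and LGALS1 (0.47) were higher, and GZMM (−0.64), S100A4 (−0.30) and IL32 (−0.26) lower. By DESeq2, CD1E, LGALS1 and S100A4 did not pass (adjusted p 0.287, 0.527 and 0.106).

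Several chaperones of the cytosol and the endoplasmic reticulum were higher in mitotic cells. Summed per cell, the median of the heat shock list was higher in 6 of 7 libraries, as was that of the endoplasmic reticulum list. Of 20 heat shock proteins and chaperonins 10 rose and 1, HSPB1, fell (median 0.15). That is 50% and 5%, against 18.9% and 21.3% of all genes tested. In 5′ v1 alone 13 rose (median 0.25) and in 3′ v3 alone 8 rose (median 0.09). The largest fold changes were those of inducible chaperones. HSPA1B had 7.47, 14.2 and 52.5 CPM in mitotic and 3.80, 4.78 and 13.1 CPM in contrast cells (3.75-fold, adjusted p = 1.03e-21), DNAJB1, the cochaperone of HSP70, had 52.3, 168 and 259.9 against 33.4, 61.3 and 119 CPM (2.66-fold), BAG3 rose 2.27-fold and HSPH1 1.5-fold. Each was higher in 7 of 7 libraries, although the ranges overlapped. HSPA1B is nearly identical to HSPA1A, so its own share of the reads is uncertain. Of the chaperonin subunits CCT3, CCT5 and CCT4 rose by 0.18 to 0.29 on the log2 scale, and TCP1, CCT2, CCT6A, CCT7 and CCT8 did not pass the test (−0.11 to 0.11).

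In the endoplasmic reticulum list 13 of 16 rose and 1 fell, the lectin chaperone CALR (−0.15; median of the list 0.40). The fitted log2 fold change of CALR was below 0 only with the 3′ v3 kit (−0.31), against 0.04 for 5′ v1 (adjusted p of the difference by edgeR = 0.0392) and 0.05 for 3′ v2. No member of the list fell by DESeq2, without scaling factors, or with the libraries of each suspension summed. HSP90B1 (GRP94) had 337, 421 and 597 CPM in mitotic and 119, 187 and 327 CPM in contrast cells (2.09-fold, adjusted p = 5.73e-23), and its classes did not overlap. HSPA5 (BiP) had 67.3, 214 and 517 against 57.3, 81.8 and 226 CPM (2.35-fold). Its difference on the log2(CPM + 1) scale was 0.23 in 3′ v3 replicate 2 and 1.08 to 1.19 in the other 3′ v3 libraries. XBP1, the transcription factor of the unfolded protein response, rose 1.53-fold and was higher in 6 of 7 libraries. DDIT3 (CHOP) rose 1.62-fold in the fit but was higher in only 5 of 7 libraries, and no mitotic cell of 3′ v3 replicate 2 held a UMI. ATF4 did not pass the test (−0.02, SE 0.05).

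**Figure D4:**
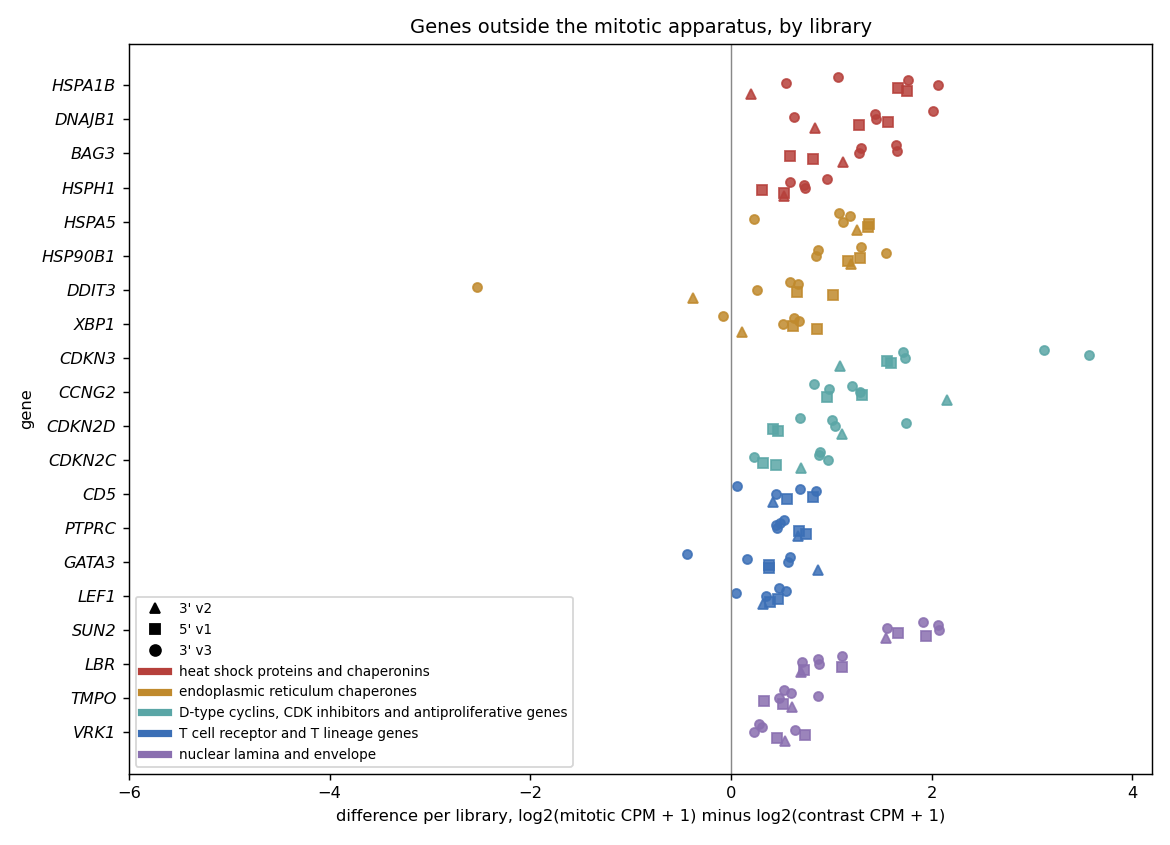
Difference between mitotic and contrast cells in each library (x axis, log2(CPM + 1)) for 4 genes each of 5 lists, with the symbol shape giving the kit and the color the list. Of the 20 genes, all but DDIT3, XBP1 and GATA3 lie above 0 in 7 of 7 libraries.

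Immediate early genes, which answer external signals within minutes, were tested in 9 of 17 cases. Of these none rose and 4 fell (median −0.24, and −0.11 in 3′ v3 alone). That is 44.4% lower, against 21.3% of all genes tested. JUND had 4.89, 65.2 and 139 CPM in mitotic and 11.6, 121 and 188 CPM in contrast cells (1.32-fold lower), and JUNB fell 1.39-fold, IER3 1.40-fold and IER2 1.18-fold. Only JUND was lower in 7 of 7 libraries. IER3 went the other way in 3′ v3 replicate 2, by 3.04 on the log2(CPM + 1) scale. By DESeq2, IER3 and IER2 did not pass (adjusted p 0.843 and 0.0530). JUN, the partner of FOS, did not pass the test (−0.28, SE 0.20).

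Levels per cell and shares of cells with a UMI were taken in each library. The spread among cells within a library was not tested. The median of a cell's summed kinesin level was 9.39 to 26.9 UMIs per 10000 across libraries, against 3.56 to 6.86 in contrast cells, and every mitotic cell held at least 1 kinesin UMI. TOP2A was detected in 96.3% to 100% of mitotic and 43.4% to 61.1% of contrast cells. PSRC1 was detected in 40% to 86.4% against 1.85% to 7.41%, and CDC25C in 18.5% to 47.5% against 4.41% to 11.8%. Detected shares of mitotic cells were lowest in the 3′ v2 library for KIF20A and CDC25C. The share of mouse barcodes with a UMI was at most 12.1% for TOP2A, 1.19% for PSRC1 and 0.542% for CDC25C, and is the background of each. These shares follow depth as well as expression, and mitotic cells were deeper.

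The last comparison asked whether the mitotic difference was alike in the kits. The interaction of class and kit, 3′ v3 minus 5′ v1, passed edgeR's test in 12 genes (0.121%), 3 (0.0302%) with a higher and 9 (0.0907%) with a lower difference in 3′ v3, and 842 genes had an unadjusted p under 0.05. BRIX1, a ribosome assembly factor, was lower in mitotic cells of 3′ v3 (log2 fold change −0.42) and higher in those of 5′ v1 (0.25), a difference of −0.67 (SE 0.10, adjusted p = 0.000318). SHQ1 (−0.32 against 0.22) and IGLL1 (−0.29 against 0.25) also changed sign between 3′ v3 and 5′ v1. In the 1 library of 3′ v2, the log2 fold changes of BRIX1, SHQ1 and IGLL1 were 0.23, −0.14 and −0.11. Whether the transcript end that is read has a part in these differences was not tested. IL2RG, the common gamma chain of cytokine receptors, was higher in both, by 0.22 in 3′ v3 and 0.75 in 5′ v1. MCM10, a replication factor, was lower in both, with log2 fold changes of −1.20 and −0.57. MKI67 rose more in 3′ v3 (1.51) than in 5′ v1 (1.12), as did CDKN2D (1.02 against 0.45), and PABPC1, the poly(A)-binding protein, fell less (−0.15 against −0.57). The adjusted p of these 7 genes was 0.00365 to 0.0380. In 3′ v3 replicate 2, with 10 mitotic cells, BRIX1, SHQ1 and IL2RG were lower than in the other 3′ v3 libraries (−1.10, −2.21 and −0.38). The count was not steady, with 0 genes when either 5′ v1 library was left out, 4 and 2 without 3′ v3 replicates 1 and 3, and 116 without replicate 4.

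**Figure D5:**
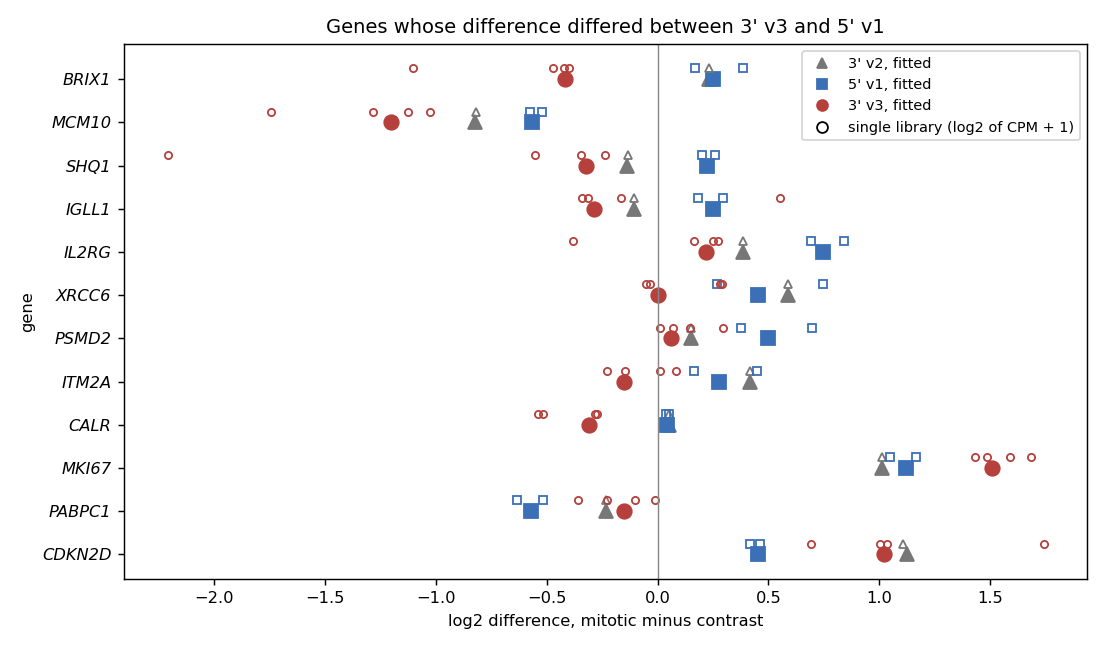
Log2 difference between mitotic and contrast cells (x axis) of the 12 genes that differed between 3′ v3 and 5′ v1. Large symbols are fitted values per kit and small open symbols single libraries on the log2(CPM + 1) scale. In BRIX1 both 5′ v1 libraries lie above 0 and all 4 libraries of 3′ v3 below.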

How the data were processed

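Per the labels and the study's methods, single-cell libraries were sequenced, and the authors downsampled reads to a common depth per cell and ran Cell Ranger 3.0.2 on a combined hg19 and mm10 reference (release 1.2.0 of the reference, per the study's methods). The deposited files hold UMI counts per gene and barcode, unnormalized, with all barcodes kept. The 7 libraries held 24790710 to 251164949 UMIs.

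The cells, the gene lists and the tests were chosen with earlier results of these data known. Cells were selected as described above, ties in score being broken in barcode order. No doublet caller was run. Counts were summed per library and class, filtered with filterByExpr, scaled by TMM and tested in edgeR 4.0.16 (R 4.3.3) with class and library as terms, and DESeq2 1.42.0 was an alternative. Both classes come from the same library, which is where the pairing comes from. P-values were two-sided and adjusted by Benjamini-Hochberg. Each SE was derived from the edgeR test, as the absolute log2 fold change divided by the square root of the F statistic. The kit comparison was the interaction of class and kit. Levels are CPM of the scaled sums, and differences of single libraries are on the log2(CPM + 1) scale.

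Genes named had an adjusted p under 0.05, 1 sign in 7 libraries and a mean of at least 20 CPM (15 highest, 10 lowest), or were up to 4 members with the largest change per list, all members behind a count of 5 or fewer, or up to 5 per direction of the kit test. Other list members were named after their values were seen, as examples. No sequence or coordinate was used here. One further result is not reported here. The fit was tested on simulated data. Figures were drawn with matplotlib 3.10.9 in Python 3.11.15.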

Additional observations from a re-analysis of the deposited data

Results flagged for a closer look

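Among 119 groups of 4 libraries of 3′ v3 that were examined, 14 had a library whose difference between mitotic and contrast cells stood far from the other 3. Nominally, the rule flags about 1 in 20 groups by chance. On the log2(CPM + 1) scale, 11 of the 14 were in 3′ v3 replicate 2, which had 10 mitotic cells: BORA at 1.55 (others 2.23 to 2.34), E2F8 at −4.21 (−0.84 to −0.29), CDKN2C at 0.23 (0.88 to 0.96), H2AFX at 1.57 (1.14 to 1.20), HSPA5 at 0.23 (1.08 to 1.19), DDIT3 at −2.53 (0.26 to 0.67), IER3 at 3.04 (−0.78 to −0.43), CD1E at −0.70 (0.06 to 0.10), BRIX1 at −1.10 (−0.47 to −0.40), SHQ1 at −2.21 (−0.55 to −0.24) and IL2RG at −0.38 (0.16 to 0.27). The other 3 were in 3′ v3 replicate 4, which had 28 mitotic cells: ARL6IP1 at 3.41 (2.5 to 2.62), TNFAIP8L1 at 2.89 (2.30 to 2.38) and PES1 at −1.73 (−0.52 to −0.43).

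The difference between mitotic and contrast cells differed between 3′ v3 and 5′ v1 in 12 genes by edgeR's interaction test. In log2 units, 3′ v3 minus 5′ v1, these were BRIX1 (−0.67), MCM10 (−0.64), SHQ1 (−0.55), IGLL1 (−0.54), IL2RG (−0.53), XRCC6 (−0.45), PSMD2 (−0.44), ITM2A (−0.43), CALR (−0.35), MKI67 (0.39), PABPC1 (0.42) and CDKN2D (0.57). Of these, XRCC6, PSMD2, ITM2A and CALR were named after their values were seen.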

How the results depend on the processing

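In the main comparison 1874 genes were higher and 2117 lower. The count of higher genes was 161 without the library as a replicate block, 650 in cells thinned to 5000 human UMIs, 1063 with a mitochondrial limit of 5%, where 3′ v3 replicates 2 and 4, with 0 and 1 mitotic cells, were left out of the fit, and 1135 with the highest 5% as mitotic, and leaving out 1 library gave 1214 (without 3′ v3 replicate 3) to 1948. The count of lower genes was 103 without the block, 1145 in 5′ v1 alone, 893 thinned and 988 with the 5% limit, and 1571 to 2223 with 1 library left out. With the libraries of each cell suspension summed, 1651 were higher and 1497 lower (52.4% higher). With the lowest 25% of the score as contrast, 1735 were higher and 2021 lower. In that setting 6 of the 26 list medians moved by at least their SD between libraries. The block is part of the design. Without it the lists of ribosomal proteins, ribosome biogenesis, and mitochondrially encoded and nuclear oxidative phosphorylation genes had no call. The T lineage, immediate early, Jurkat marker and TALL104 marker lists had none either. Without a low-count filter 1429 genes were higher and 2713 lower of 20684, the median of all genes moving by −0.13, and 34.5% of the calls were higher; 61.0% were higher without the block. The kit count of 12 was 7 with RLE size factors, 30 without a filter, 4 thinned, 0 without the block and 0 to 116 with 1 library left out. No gene called in the main fit was called in the opposite direction in another setting. Of the named genes, 119 were recomputed wherever a setting tested them. CALR and other genes named in the text were not among them. Of the 119, MT-CYB reversed to 0.0097 with the 5% limit, and BRIX1 and SHQ1 to 0.29 and 0.26 in 5′ v1 alone. IGLL1 (−0.04, not past the test) turned to 0.034 without scaling, 0.0050 with DESeq2, 0.055 without the block, 0.020 with suspensions summed, 0.29 in 5′ v1 alone, 0.052 with the score from CCNB1, CDC20, PLK1 and UBE2C, and 0.031 and 0.060 without 3′ v3 replicates 1 and 3. The cause was not tested. In 3′ v3 replicate 2, 10 mitotic cells limit what low genes can show.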
